A study of Rattus norvegicus with 20 samples.

Results

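The proteasome degrades ubiquitin-tagged proteins, and its constitutive subunits and regulators were followed here in blood cells of WKY and LEW rats. The genes were all those with a probe set under a single annotated symbol that starts with Psma, Psmb, Psmc, Psmd, Psme, Psmf or Psmg, without the interferon-induced subunits Psmb8, Psmb9 and Psmb10. These were 44 of the 14497 genes that had such a symbol, measured by 51 probe sets, and the probe set of the highest mean was kept for each gene. By structure, 7 belonged to the alpha ring and 8 to the beta rings of the 20S core, 6 were ATPases of the 19S base, 3 other base subunits, 8 lid subunits, 3 chaperones of 19S assembly, 4 activators and 3 chaperones of 20S assembly. The remaining 2, Psmc3ip and Psme3ip1, share the prefixes but are no subunits, and encode a protein of meiotic recombination and a partner of the activator Psme3. Psma3, Psma8, Psmf1 and Psmg3 were not matched under the rule. The probe set that names Psma3 also names Psma3l.

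The 20S core is a barrel of alpha and beta rings. The outer alpha rings form a gate, and Psmb5, Psmb6 and Psmb7 of the inner beta rings cut proteins. The 19S particle caps the barrel, binds ubiquitin chains, removes them and unfolds the substrate with its ring of ATPases, whereas activators such as the Psme1 and Psme2 complex open the gate without ubiquitin. In immune cells interferon exchanges the cutting subunits for Psmb8, Psmb9 and Psmb10, which changes the peptides offered to T cells. When proteasomes fail, the transcription factor NFE2L1 raises the transcription of most subunit genes together.

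The samples were RNA of 20 male rats, 15 weeks old, 1 Rat Gene 1.0 ST array per rat. There were 5 WKY/NCrl and 5 LEW/Crl rats fed the cafeteria diet (CAF), an energy-dense diet of palatable human foods, for 7 weeks, and 5 WKY/NCrl and 5 LEW/Crl rats fed standard chow (STD). Both strains are inbred, so that the rats of a strain are 1 genotype, and all rats were fasted before blood was taken. The labels call the cells PBMC, whereas the methods describe monocytes that adhered to plastic. The values are log2 probe set values, and the precision is limited by the number of rats.

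The arrays carried markers of several blood cell types beside those of monocytes, and their levels differed between the strains. The mean log2 value of 9 monocyte markers lay between 10.92 and 11.48 in CAF-fed WKY and between 11.71 and 12.01 in CAF-fed LEW rats, and on STD between 11.28 and 11.55 in WKY and between 11.76 and 11.91 in LEW rats. The mean of 6 neutrophil markers lay between 9.35 and 10.57 in CAF-fed WKY and between 8.13 and 9.64 in CAF-fed LEW rats, and on STD between 9.49 and 11.12 in WKY and between 7.82 and 8.61 in LEW rats. Markers were counted as higher or lower where they passed limma's test at an adjusted p under 0.05. Of all probe sets 7.58% passed on CAF and 11.3% on STD. On CAF 4 of 9 monocyte markers were lower and 4 of 6 neutrophil markers higher in WKY rats, and on STD 4 monocyte markers were lower, 2 higher and all 6 neutrophil markers higher. Of 7 T cell markers 1 was lower on CAF and 2 on STD. Of 5 NK cell markers 3 were higher and 1 lower on CAF, and 4 were higher and 1 lower on STD. Of 5 erythroid markers 1 was lower on CAF and 0 on STD, of 4 platelet markers 0 and 2 were lower, and of 2 B cell markers 0 passed. In such bulk samples fewer cells of a type and less RNA per cell cannot be told apart. The part of these cells in the strain differences of proteasome genes was not tested beyond a fit that holds the monocyte marker mean as a covariate. On 4 arrays (CAF-fed LEW rat 2, STD-fed WKY rat 1 and STD-fed LEW rats 2 and 3) the heat shock gene Hsph1 lay between 11.20 and 12.19, against 8.99 to 9.45 on the other 16, so counts are also given without these arrays.

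Of the 44 genes, Psme2 had the highest mean signal, at 11.95, and Psmb11 the lowest, at 5.95, which placed them at 97.8% and 33.7% of the probe sets ranked by signal. Psme2 is a subunit of the interferon-induced activator, and Psmb11 is the cutting subunit of the thymus. Psmb11 had 5.95, 5.87, 5.96, 6.10 and 5.83 in CAF-fed WKY rats and 5.77, 6.04, 5.91, 5.83 and 5.99 in CAF-fed LEW rats. On STD it had 5.82, 6.05, 6.16, 5.95 and 5.98 in WKY and 5.86, 5.97, 6.05, 5.93 and 5.96 in LEW rats, so that the 4 groups overlapped. The spread within groups was slightly below that of the array. The residual SD had a median of 0.098 over the 44 genes, with Psma7 lowest at 0.059 and Psmd10 highest at 0.155. The median was 0.107 over all genes with a symbol and 0.110 over all probe sets. A strain or diet difference of the 44 genes had a median SE of 0.063.

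The promoters of 38 of the 44 genes were found in RefSeq (build GRCr8), as 250 bases before and 50 after the start of each gene. No entry was matched for Psma3l, Psma7, Psmb11, Psmd6, Psmd12 and Psmd14. These windows were searched on both strands for TGACNNNGC, the core of the antioxidant response element that NFE2L1 binds, for CCAAT, for GAAANNGAAA, a core of the interferon-stimulated response element, and for TTCNNNGAA, a core of the element bound by STAT factors. TGACNNNGC was matched in 7 of the 38 promoters (18.4%, against 12.1% of 33469 promoters in the table), in Psmb2, Psmb5, Psmb6, Psmd1, Psmd3, Psmd9 and Psme4. CCAAT was matched in 18 (47.4%, against 37.5%), GAAANNGAAA in 5 (13.2%, against 3.92%), which were Psma4, Psmb3, Psmd7, Psme2 and Psmg4, and TTCNNNGAA in 3 (7.89%, against 8.87%). A match is a description of the letters and not a binding site. The 250 bases before the start are printed for 5 of the 7 genes that differed between the strains. Psma7 had no entry, and Psmg2, whose window held no match to the 4 motifs, was left out. Capitals mark the matches to the 4 motifs, on either strand. They lie at chr8:64236270-64236519 (plus strand) for Psma4, chr5:144254808-144255057 (plus) for Psmb2, chr10:83193537-83193786 (plus) for Psmb3, chr6:125122247-125122496 (plus) for Psmc1 and chr15:33052752-33053001 (minus) for Psme2.
Psma4: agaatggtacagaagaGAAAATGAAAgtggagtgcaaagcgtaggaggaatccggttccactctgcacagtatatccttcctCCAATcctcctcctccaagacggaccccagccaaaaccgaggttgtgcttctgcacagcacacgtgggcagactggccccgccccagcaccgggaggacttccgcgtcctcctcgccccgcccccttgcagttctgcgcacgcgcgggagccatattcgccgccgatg
Psmb2: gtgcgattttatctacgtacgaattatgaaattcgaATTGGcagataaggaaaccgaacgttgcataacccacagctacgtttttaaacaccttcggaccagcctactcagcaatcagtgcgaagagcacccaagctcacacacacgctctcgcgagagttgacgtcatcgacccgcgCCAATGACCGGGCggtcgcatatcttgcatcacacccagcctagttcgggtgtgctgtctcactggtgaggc
Psmb3: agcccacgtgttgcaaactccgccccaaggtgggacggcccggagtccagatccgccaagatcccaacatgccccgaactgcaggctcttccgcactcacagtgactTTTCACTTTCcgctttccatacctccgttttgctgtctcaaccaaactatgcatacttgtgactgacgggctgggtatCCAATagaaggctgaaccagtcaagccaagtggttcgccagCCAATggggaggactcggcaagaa
Psmc1: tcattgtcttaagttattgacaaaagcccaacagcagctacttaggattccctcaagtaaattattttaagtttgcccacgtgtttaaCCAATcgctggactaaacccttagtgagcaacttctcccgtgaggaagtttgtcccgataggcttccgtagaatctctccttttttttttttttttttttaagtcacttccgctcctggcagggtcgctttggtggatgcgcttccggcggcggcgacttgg
Psme2: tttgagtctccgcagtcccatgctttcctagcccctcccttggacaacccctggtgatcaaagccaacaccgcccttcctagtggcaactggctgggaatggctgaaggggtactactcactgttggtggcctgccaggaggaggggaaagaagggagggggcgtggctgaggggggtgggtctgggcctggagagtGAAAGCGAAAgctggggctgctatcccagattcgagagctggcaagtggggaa

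In Psme2 the match is GAAAGCGAAA, which starts at −53 from the gene's start, and Psma4 has GAAAATGAAA at −234. In Psmb2 a CCAAT overlaps the antioxidant element core by 1 base. Psmb3 has a pair of CCAAT matches and, on the other strand, an interferon element core, whereas Psmc1 has a single CCAAT. No match to the 4 motifs was found in the window of Psmg2, which says only that these letters are not in this window.

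Few of the 44 genes differed between the strains, and those that did differed by less than 1.5-fold. On CAF, Psmc1, Psma7 and Psme2 were higher and Psma4 was lower in WKY than in LEW rats in limma's test, with p-values adjusted over all 28826 probe sets and a threshold of 0.05. That is 4 of 44 (9.09%), where 7.58% of all probe sets passed (4.24% higher, 3.34% lower) and 9.1% of all genes with a symbol. On STD, Psmc1, Psme2, Psmb3 and Psmb2 were higher and Psma4 and Psmg2 were lower in WKY rats, 6 of 44 (13.6%), where 11.3% of all probe sets passed (5.88% higher, 5.38% lower) and 14% of genes with a symbol. At an unadjusted P under 0.01 there were 7 genes on CAF and 6 on STD, where 10.3% and 13.3% of all probe sets reached it. At an unadjusted P under 0.05 there were 13 genes on CAF and 7 on STD, where 18.5% and 23.3% of all probe sets reached it. The median log2 difference of the 44 genes was 0.02 on CAF and 0.00 on STD, against −0.01 and 0.00 over all probe sets. The 95% interval of the difference lay within 1.5-fold for all 44 genes on CAF and for 43 on STD, with Psma4 as the exception on STD. It lay within 1.2-fold for 31 on CAF (70.5%) and 33 on STD (75%). Over all probe sets 92.7% of the intervals on CAF and 91.6% on STD lay within 1.5-fold, and 63.8% and 60.4% within 1.2-fold. The share of genes that differed was thus near that of the array. Without the 4 arrays high in Hsph1, a choice made after seeing the data, 3 genes passed on CAF (Psma4, Psma7 and Psmc1), 4 on STD (Psma4, Psmb3, Psmc1 and Psmg2) and 0 in the diet and interaction comparisons. Psma4, Psma7 and Psmc1 kept the calls named here without any single rat.

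**Figure D1:**
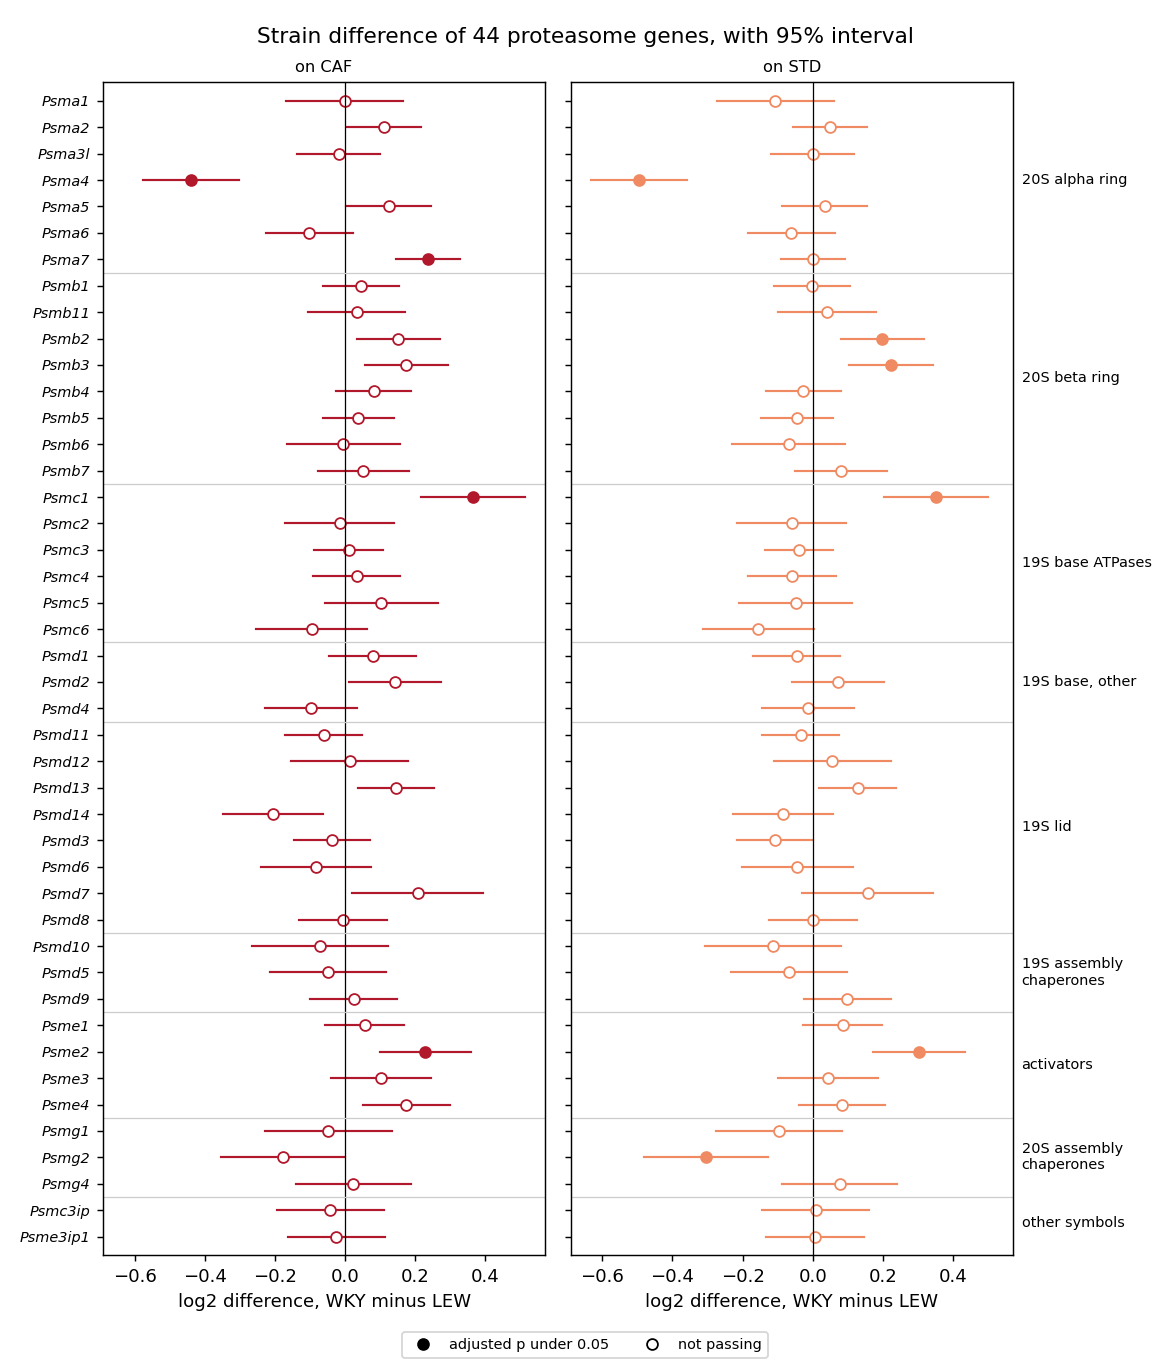
Log2 difference, WKY minus LEW, of each of the 44 genes by structural class, on CAF (left) and on STD (right), with 95% intervals (points filled where the adjusted p was under 0.05). Psma4 stands to the left of 0 and Psmc1 and Psme2 to the right on both diets, and the medians were 0.02 and 0.00.

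The largest difference was that of Psma4 in the alpha ring. In yeast, the tail of this subunit helps to close the gate of the core. Psma4 had 9.48, 9.52, 9.37, 9.57 and 9.56 in CAF-fed WKY rats and 9.80, 9.86, 9.96, 9.99 and 10.09 in CAF-fed LEW rats. On STD the values were 9.54, 9.44, 9.24, 9.39 and 9.41 in WKY rats and 9.91, 9.81, 9.82, 9.87 and 10.08 in LEW rats. Every WKY rat lay below every LEW rat on both diets. The log2 difference was −0.44 (SE 0.07, adjusted p = 1.38e-04) on CAF and −0.50 (SE 0.07, adjusted p = 2.81e-05) on STD, that is 0.74 and 0.71 times the signal of LEW rats. Psma7 encodes the ring neighbour that, in yeast, can take the place of Psma4 in an alternative form of the core. Psma7 had 9.74, 9.69, 9.63, 9.63 and 9.67 in CAF-fed WKY rats and 9.36, 9.44, 9.47, 9.40 and 9.51 in CAF-fed LEW rats. The groups on CAF did not overlap, and the log2 difference was 0.24 (SE 0.04, adjusted p = 0.00140). On STD Psma7 had 9.46, 9.50, 9.59, 9.50 and 9.49 in WKY and 9.57, 9.40, 9.49, 9.48 and 9.58 in LEW rats. These groups overlapped, with a difference of 0.00 (95% interval −0.09 to 0.09). The other 5 alpha subunits, Psma1, Psma2, Psma3l, Psma5 and Psma6, did not pass on either diet, with log2 differences between −0.11 and 0.12.

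In the beta rings, the 2 genes that passed, both on STD only, were Psmb3 and Psmb2. Psmb1 and Psmb4, which do not cut either, did not pass, with 0.05 and 0.08 on CAF and −0.002 and −0.03 on STD. Psmb3 and Psmb2 lie beside the cutting subunits and do not cut themselves. Psmb3 had 10.95, 11.06, 10.91, 10.93 and 10.91 in STD-fed WKY rats and 10.65, 10.78, 10.70, 10.73 and 10.79 in STD-fed LEW rats, without overlap, a log2 difference of 0.22 (SE 0.06, adjusted p = 0.0132). On CAF it had 11.05, 10.91, 10.83, 10.86 and 10.85 in WKY and 10.78, 10.55, 10.68, 10.75 and 10.87 in LEW rats, with overlap and a difference of 0.17 (SE 0.06, adjusted p = 0.0705), which did not pass. Psmb2 had 11.80, 11.95, 11.84, 11.88 and 11.87 in STD-fed WKY and 11.73, 11.65, 11.58, 11.61 and 11.77 in STD-fed LEW rats. These groups did not overlap, and the difference was 0.20 (SE 0.06, adjusted p = 0.0271). On CAF Psmb2 had 11.98, 11.78, 11.73, 11.82 and 11.81 in WKY and 11.58, 11.61, 11.62, 11.73 and 11.83 in LEW rats, with overlap and a difference of 0.15 (SE 0.06, adjusted p = 0.126) that did not pass. Of the cutting subunits, Psmb5 differed by 0.04 on CAF and −0.05 on STD, Psmb6 by 0.00 and −0.07 and Psmb7 by 0.05 and 0.08. None of these 3 passed, and each 95% interval lay within 1.2-fold. In all, 0 of the 8 beta genes passed on CAF in limma's test (2 at an unadjusted P under 0.05, which 18.5% of all probe sets reached). On STD 2 of the 8 passed. The share of all probe sets that passed was 7.58% on CAF and 11.3% on STD.

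**Figure D2:**
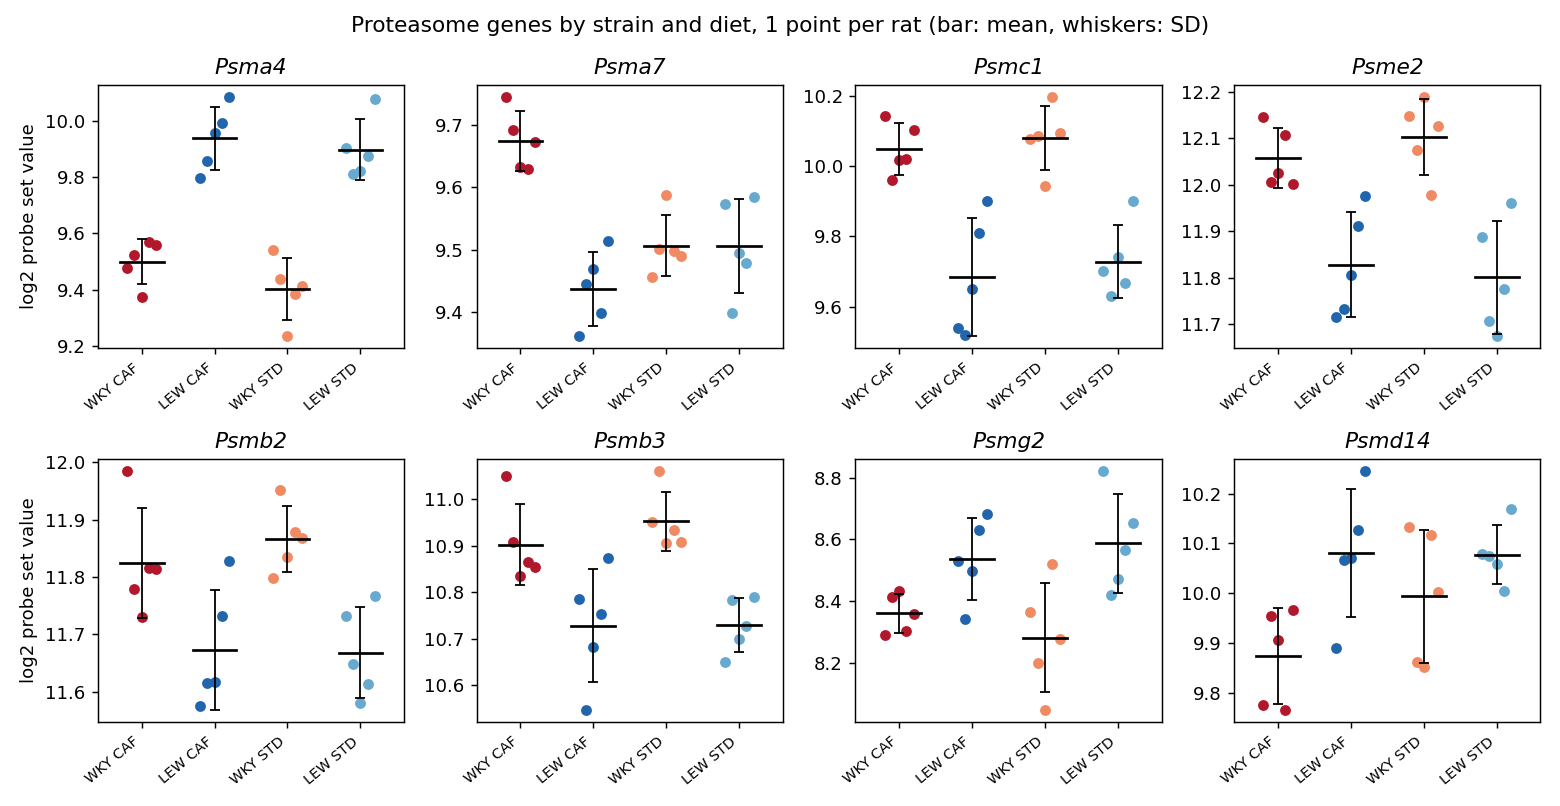
Log2 probe set values of 8 proteasome genes, 1 point per rat, in CAF-fed WKY, CAF-fed LEW, STD-fed WKY and STD-fed LEW rats, with the group mean (bar) and SD (whiskers). On CAF every WKY rat lies below every LEW rat for Psma4, and every WKY rat lies above every LEW rat for Psma7, Psmc1 and Psme2.

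Among the 6 ATPases of the 19S base, Psmc1 was higher in WKY rats on both diets. Its C-terminal tail inserts between the alpha subunits and opens the gate. Psmc1 had 10.14, 9.96, 10.02, 10.02 and 10.10 in CAF-fed WKY rats and 9.54, 9.52, 9.65, 9.81 and 9.90 in CAF-fed LEW rats. On STD it had 10.08, 10.09, 9.94, 10.20 and 10.09 in WKY rats and 9.70, 9.63, 9.74, 9.67 and 9.90 in LEW rats. The strains did not overlap on either diet, with log2 differences of 0.36 (SE 0.07, adjusted p = 0.00210) on CAF and 0.35 (SE 0.07, adjusted p = 0.00223) on STD, that is 1.29-fold and 1.28-fold. The other 5 ATPases, Psmc2, Psmc3, Psmc4, Psmc5 and Psmc6, are built into the same ring and did not pass, with differences between −0.16 and 0.10. Among them, Psmc6 had no overlap between the strains on STD, at 10.04, 9.79, 10.04, 9.99 and 10.02 in WKY and 10.09, 10.13, 10.15, 10.08 and 10.22 in LEW rats, and a difference of −0.16 (SE 0.08, adjusted p = 0.224).

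Of the 3 other base subunits and the 8 lid subunits 0 passed limma's test between the strains, with 1 and 3 at an unadjusted P under 0.05 on CAF and 0 and 1 on STD. Over all probe sets 18.5% on CAF and 23.3% on STD had such a P. Psmd2, a scaffold of the base that docks ubiquitin carriers, had 11.38, 11.41, 11.38, 11.44 and 11.42 in CAF-fed WKY and 11.09, 11.14, 11.25, 11.41 and 11.42 in CAF-fed LEW rats. On STD the values were 11.38, 11.34, 11.26, 11.42 and 11.32 in WKY and 11.23, 11.19, 11.30, 11.20 and 11.45 in LEW rats. The strains overlapped on both diets, with differences of 0.14 (SE 0.06, adjusted p = 0.217) and 0.07 (SE 0.06, adjusted p = 0.562). Psmd14, the enzyme of the lid that takes ubiquitin chains off the substrate, had 9.78, 9.96, 9.91, 9.77 and 9.97 in CAF-fed WKY and 9.89, 10.07, 10.07, 10.13 and 10.25 in CAF-fed LEW rats. On STD it had 10.13, 9.86, 9.85, 10.12 and 10.003 in WKY and 10.08, 10.07, 10.06, 10.005 and 10.17 in LEW rats, and the strains overlapped on both diets. The difference was −0.21 (SE 0.07, adjusted p = 0.0743) on CAF and −0.08 (SE 0.07, adjusted p = 0.518) on STD. The 8 lid genes had a median difference of −0.02 on both diets. Psmd7, a lid subunit that pairs with Psmd14, differed by 0.21 and 0.16 (adjusted p = 0.205 and 0.319).

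Of the activators, Psme2 was higher in WKY rats on both diets. Psme2 had 12.15, 12.01, 12.03, 12.11 and 12.002 in CAF-fed WKY rats and 11.72, 11.73, 11.81, 11.91 and 11.98 in CAF-fed LEW rats. On STD the values were 12.15, 12.08, 12.19, 11.98 and 12.13 in WKY rats and 11.89, 11.71, 11.67, 11.78 and 11.96 in LEW rats. No WKY rat lay below a LEW rat on the same diet, and the log2 difference was 0.23 (SE 0.06, adjusted p = 0.0268) on CAF and 0.30 (SE 0.06, adjusted p = 0.00266) on STD. The other probe set of Psme2 gave 0.23 (adjusted p = 0.0413) and 0.33 (adjusted p = 0.00274). Psme1, its partner in the same ring, differed by 0.06 and 0.09 (adjusted p = 0.684 and 0.381), and its 95% interval lay within 1.2-fold on both diets. Psme4, an activator of nuclear proteasomes, differed by 0.17 (SE 0.06, adjusted p = 0.0811) on CAF and 0.08 (SE 0.06, adjusted p = 0.442) on STD. Psme3, the nuclear relative of Psme1 and Psme2, did not pass either (0.10 and 0.04). All 4 activator genes had positive differences on both diets, of which only those of Psme2 passed. The call of Psme2 on CAF ended without CAF-fed LEW rat 1, 2 or 3 or WKY rat 1 or 4 (adjusted p = 0.0618 to 0.0798), and on both diets without the 4 arrays high in Hsph1 (0.21, adjusted p = 0.0554, and 0.22, adjusted p = 0.0636).

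The chaperones that build the core and the cap were measured too. Psmg2 pairs with Psmg1 to start the alpha ring. Psmg2 had 8.36, 8.20, 8.05, 8.52 and 8.28 in STD-fed WKY and 8.82, 8.42, 8.47, 8.57 and 8.65 in STD-fed LEW rats. On CAF it had 8.29, 8.41, 8.43, 8.30 and 8.36 in WKY and 8.53, 8.34, 8.50, 8.63 and 8.68 in LEW rats. The strains overlapped on both diets, and the difference was −0.31 (SE 0.08, adjusted p = 0.0225) on STD, which passed, and −0.18 (SE 0.08, adjusted p = 0.274) on CAF, which did not. Psmg1 differed by −0.05 and −0.10 and Psmg4 by 0.02 and 0.08 on CAF and on STD, and neither passed. Psmd10, also called gankyrin, chaperones the ATPase ring and had 6.61, 6.85, 6.87, 6.83 and 6.97 in CAF-fed WKY and 6.82, 6.67, 6.87, 7.11 and 7.01 in CAF-fed LEW rats. On STD it had 6.80, 6.91, 6.57, 6.94 and 6.71 in WKY and 6.79, 6.74, 6.91, 6.91 and 7.16 in LEW rats. The groups overlapped, with differences of −0.07 (SE 0.09, adjusted p = 0.783) and −0.11 (SE 0.09, adjusted p = 0.521). Psmc3ip, which is no subunit, had 6.83, 6.92, 6.98, 6.79 and 6.80 in CAF-fed WKY and 6.83, 6.81, 6.92, 6.85 and 7.13 in CAF-fed LEW rats. On STD the values were 7.01, 6.88, 6.89, 6.88 and 6.82 in WKY and 7.10, 6.87, 6.87, 6.64 and 6.96 in LEW rats, and its differences were −0.04 and 0.01, with overlap throughout. The call of Psmg2 ended without STD-fed LEW rat 1 or 5 or WKY rat 2 or 3, and that of Psmb2 without STD-fed LEW rat 2, 3 or 4 or WKY rat 2 or 5 (highest adjusted p = 0.0718 and 0.0748).

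The strain differences on CAF and on STD come from different rats and can be set side by side. Over the 44 genes they had a Pearson correlation of 0.86 and a Spearman correlation of 0.76, and 35 of 44 genes (79.5%) had the same sign on both diets. Without Psma4 and Psmc1 the Pearson correlation was 0.75. Over all probe sets the values were 0.83, 0.54 and 65.3%. Genes of 1 array are not independent replicates, so these are descriptions. Groups without overlap were found for Psma4, Psma7, Psmc1 and Psme2 on CAF (4 of 44, with 7.8% of all probe sets) and for Psma4, Psmb2, Psmb3, Psmc1, Psmc6 and Psme2 on STD (6 of 44, with 8.46%). With the mean of the monocyte markers as a covariate, no gene passed on CAF, and Psma4 (−0.48, adjusted p = 0.00374) and Psmg2 (−0.42, adjusted p = 0.0385) passed on STD. In that fit the SE of the strain difference was 2.07 times as large on CAF and 1.47 times on STD, and the marker mean did not overlap between the strains on either diet. The log2 differences of Psma4 and Psma7 on CAF were then −0.42 and 0.26, and those of Psmc1 and Psme2 0.20 and 0.20.

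CAF did not change any of the 44 genes past the threshold in either strain. In WKY rats 0 of 44 passed limma's test after adjustment, where 0% of all probe sets passed. At an unadjusted P under 0.05 there were 2 of 44, where 8.81% of all probe sets reached it, and under 0.01 there was 1, where 2.64% did. In LEW rats 0 of 44 passed after adjustment by limma, where again 0% of all probe sets passed, and 0 had an unadjusted P under 0.05 or 0.01, where 5.46% and 1.07% of all probe sets did. The 95% interval lay within 1.5-fold for all 44 genes in both strains, and within 1.2-fold for 43 in WKY rats, with the exception of Psmc5 (−0.03 to 0.29), and for all 44 in LEW rats. Over all probe sets 70.4% of the intervals in WKY and 73.1% in LEW rats lay within 1.2-fold, and 96.5% and 97.4% within 1.5-fold. The median log2 difference of the 44 genes was 0.00 in WKY and −0.02 in LEW rats.

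**Figure D3:**
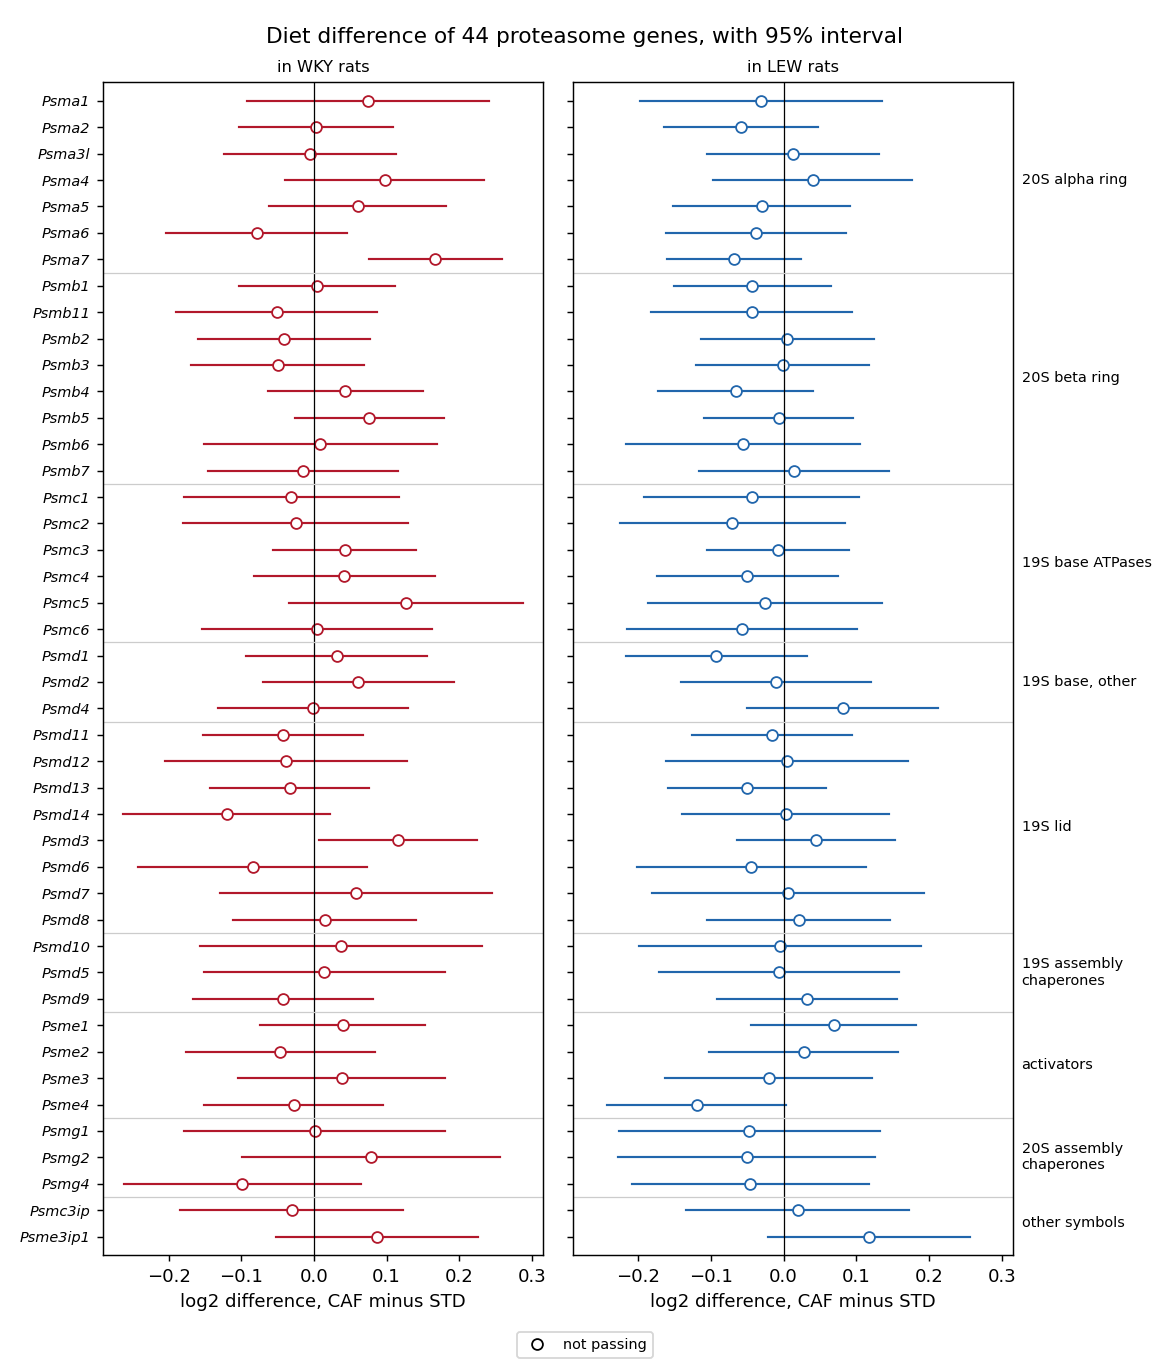
Log2 difference, CAF minus STD, of each of the 44 genes by structural class, in WKY rats (left) and in LEW rats (right), with 95% intervals. No gene passed in either strain, and the medians were 0.00 and −0.02.

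The gene of smallest P for the diet was Psma7 in WKY rats. Its values, given above, ran from 9.63 to 9.74 in CAF-fed and from 9.46 to 9.59 in STD-fed WKY rats without overlap, and the log2 difference was 0.17 (SE 0.04, adjusted p = 0.237). Psma7 was the only 1 of the 44 genes without overlap between the diets, where 2.07% of all probe sets had none in WKY rats and 0.989% in LEW rats. In LEW rats its difference was −0.07 (SE 0.04, adjusted p = 0.934). Psmd3, a lid subunit, had 9.58, 9.47, 9.51, 9.54 and 9.48 in CAF-fed WKY and 9.41, 9.48, 9.28, 9.41 and 9.41 in STD-fed WKY rats, with a difference of 0.12 (SE 0.05, adjusted p = 0.533). Psmd14, at −0.12 (SE 0.07, adjusted p = 0.650), was the next by P. In LEW rats the smallest P was that of Psme4, with 10.86, 10.89, 10.80, 10.66 and 10.64 on CAF and 10.85, 10.87, 10.89, 11.02 and 10.81 on STD and a difference of −0.12 (SE 0.06, adjusted p = 0.914). Psme3ip1, a partner of Psme3, had 9.52, 9.55, 9.64, 9.91 and 9.74 in CAF-fed LEW and 9.60, 9.45, 9.61, 9.54 and 9.58 in STD-fed LEW rats, with 0.12 (SE 0.07, adjusted p = 0.922). Psmd1, a scaffold of the base, had 10.32, 10.50, 10.46, 10.60 and 10.61 in CAF-fed LEW and 10.55, 10.53, 10.65, 10.52 and 10.71 in STD-fed LEW rats, with −0.09 (SE 0.06, adjusted p = 0.934). The diets overlapped for these 5 genes, and none of them passed.

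Whether the diet acted differently in the strains was read from the interaction, the CAF minus STD difference of WKY rats less the same difference of LEW rats. It passed limma's test for 0 of the 44 genes, where 0% of all probe sets passed, and 1 of the 44 had an unadjusted P under 0.05 and under 0.01, where 5.95% and 1.3% of all probe sets did. That gene was Psma7, with an interaction of 0.24 (SE 0.06, adjusted p = 0.707) and an unadjusted P of 0.00121. Psmb4, a structural beta subunit, had an interaction of 0.11 (SE 0.07, adjusted p = 0.897), with 10.73, 10.71, 10.81, 10.78 and 10.80 in CAF-fed WKY and 10.54, 10.58, 10.71, 10.75 and 10.84 in CAF-fed LEW rats. On STD Psmb4 had 10.78, 10.66, 10.71, 10.72 and 10.75 in WKY and 10.74, 10.77, 10.69, 10.72 and 10.84 in LEW rats. Psmd1 had an interaction of 0.12 (SE 0.08, adjusted p = 0.901), with 10.66, 10.56, 10.49, 10.54 and 10.63 in CAF-fed and 10.62, 10.59, 10.41, 10.63 and 10.49 in STD-fed WKY rats. The strain difference of Psma7 on CAF was thus not shown to differ from that on STD after adjustment. The interaction is less precise, and 26 of the 44 intervals (59.1%) lay within 1.2-fold, where 40.7% of those of all probe sets did.

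Within the groups, many proteasome genes moved together from rat to rat. After the group mean was taken from each value, the correlation between 2 of the 44 genes over the 20 rats had a median of 0.37 (quartiles 0.11 and 0.56, 946 pairs), and 80.3% of the pairs were positive. The median between these genes and all others with a symbol was −0.01, and that between all genes with a symbol was 0.01. The median was 0.36 without the 4 arrays high in Hsph1, and leaving out any single rat gave 0.31 to 0.39. It was 0.14 in the 10 WKY rats and 0.55 in the 10 LEW rats, and it lay between 0.11 and 0.16 and between 0.45 and 0.60 when single rats were left out. The difference between the strains in this measure was not tested. The points share the array, so that whatever differs between arrays enters every pair, and its part was not tested. These correlations are descriptions with no test.

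**Figure D4:**
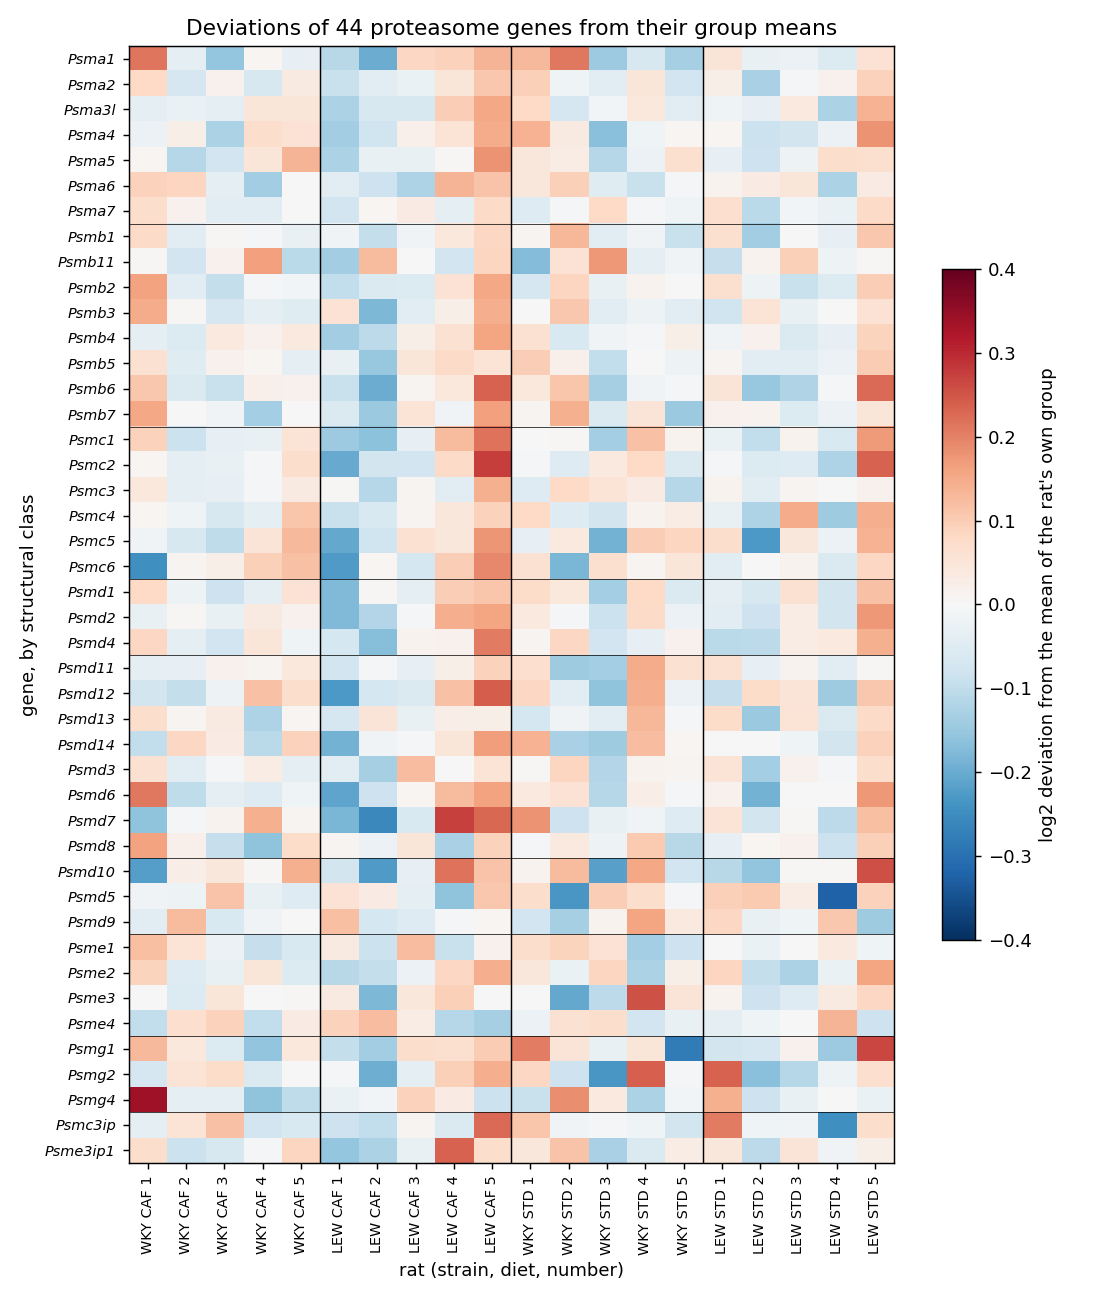
Log2 deviation of each of the 44 genes (top to bottom, by structural class) from the mean of the rat's own group, for the 20 rats. CAF-fed LEW rat 5 and STD-fed LEW rat 5 are above their group mean for 42 and 40 of the 44 genes, and CAF-fed LEW rats 1 and 2 for 8 and 7.

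The coupling was uneven over the structural classes. The median correlation between genes of the same class was 0.70 among the 3 non-ATPase base subunits, 0.57 within the beta rings, 0.49 within the ATPases, 0.43 within the alpha ring and 0.37 within the lid. It was 0.15 within the 20S chaperones and −0.09 within the 19S chaperones, of 3 genes each, and −0.13 within the 4 activators. In the classes of 3 or 4 genes, which hold the highest and the lowest medians, few pairs enter. With all other genes of the set, the medians were highest for Psmc1, at 0.58, Psmb6, at 0.57, and Psma4, at 0.56. These medians were lower in WKY than in LEW rats, at 0.36 and 0.80 for Psmc1, 0.34 and 0.73 for Psmb6 and 0.22 and 0.75 for Psma4, and in WKY rats the highest was that of Psmd1, at 0.48. The median was negative for 4 genes, namely Psme4, at −0.45, the chaperone Psmd9, at −0.22, Psmb11, at −0.10, and Psme1, at −0.03. CAF-fed LEW rat 5 deviated by a mean of 0.12 over the 44 genes and STD-fed LEW rat 5 by 0.09, whereas CAF-fed LEW rats 1 and 2 each deviated by −0.08 and STD-fed LEW rat 2 by −0.06. In WKY rats the largest mean deviation was −0.05, in STD-fed rat 3.

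The genes around the proteasome were described from lists outside the set. Of the 3 immunoproteasome genes, Psmb9 was higher in WKY rats on both diets and Psmb8 and Psmb10 did not pass. Psmb9 had 10.59, 10.55, 10.29, 10.63 and 10.59 in CAF-fed WKY and 10.24, 10.16, 10.24, 9.83 and 9.99 in CAF-fed LEW rats. On STD it had 10.77, 10.85, 10.82, 10.52 and 10.97 in WKY and 10.34, 10.26, 10.13, 10.38 and 10.12 in LEW rats. No WKY rat lay below a LEW rat on the same diet, and the differences were 0.44 (adjusted p = 0.00408) and 0.54 (adjusted p = 4.05e-04). Psmb9 and Psme2, both interferon-induced parts of the antigen-processing proteasome, were thus higher in WKY rats on both diets, and Psme1, Psmb8 and Psmb10 did not pass on either. The calls of Psme2 ended on both diets without the arrays high in Hsph1, as given above. Psmb8 differed by 0.12 (adjusted p = 0.215) on CAF and −0.01 on STD, and Psmb10 by 0.18 (adjusted p = 0.250) and 0.11.

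Of the 3 genes of the NFE2L1 pathway, Ddi2 was lower in WKY rats on both diets. Ddi2 encodes the protease that cuts NFE2L1 into its active form. It had 9.99, 9.94, 10.01, 10.03 and 10.06 in CAF-fed WKY and 10.78, 11.03, 10.76, 10.80 and 10.94 in CAF-fed LEW rats. On STD the values were 9.83, 9.97, 9.87, 9.93 and 9.80 in WKY and 10.79, 10.83, 10.82, 10.73 and 10.85 in LEW rats. The strains lay far apart, with differences of −0.86 (adjusted p = 5.57e-10) and −0.92 (adjusted p = 1.53e-10). Ngly1, which removes sugars from NFE2L1, was lower on STD (−0.30, adjusted p = 0.00983) and at −0.23 on CAF (adjusted p = 0.0562). Nfe2l1 itself differed by 0.11 on CAF (adjusted p = 0.507) and −0.10 on STD (adjusted p = 0.490). Of the 9 measured genes of other proteasome parts and associated factors, such as the ubiquitin receptor Adrm1 and the enzyme Usp14, 0 passed on either diet in limma's test, with 3 on CAF and 5 on STD at an unadjusted P under 0.05, which 18.5% and 23.3% of all probe sets reached. Of 8 measured genes of ubiquitin supply and delivery, 1 passed on STD, where 11.3% of all probe sets passed. It was Ubqln4, a shuttle factor, which was lower in WKY rats (−0.29, adjusted p = 0.0160), and 0 passed on CAF. Of 11 measured heat shock genes 0 passed between the strains, also at an unadjusted P under 0.05. Their differences were imprecise, with a median SE of 0.25 against 0.06 for the proteasome genes. They ran from −0.88 to 0.11 on CAF and from −0.88 to 0.00 on STD, and 5 of the 11 intervals lay within 1.5-fold on each diet. No gene of these 5 lists passed limma's test between the diets, where 0% of all probe sets passed. Between 0 and 2 genes of a list had an unadjusted P under 0.05 in either strain, which 8.81% of all probe sets reached in WKY and 5.46% in LEW rats.

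**Figure D5:**
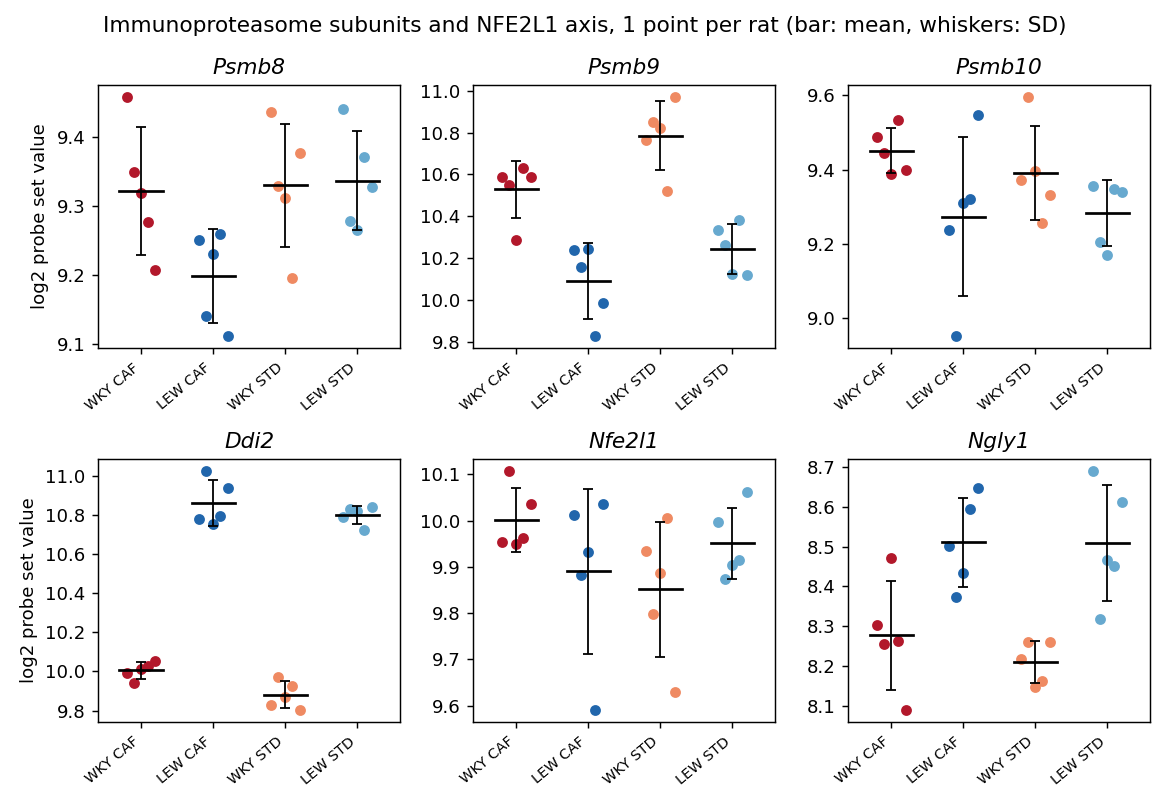
Log2 probe set values of the immunoproteasome genes and of the NFE2L1 pathway, 1 point per rat, in CAF-fed WKY, CAF-fed LEW, STD-fed WKY and STD-fed LEW rats, with the group mean (bar) and SD (whiskers). Ddi2 separates the strains on both diets, with means of 10.01 in CAF-fed WKY, 10.86 in CAF-fed LEW, 9.88 in STD-fed WKY and 10.80 in STD-fed LEW rats.

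Several of these genes have near copies in the rat genome. RefSeq lists pseudogenes under the symbols of 18 of the 44 genes, among them 7 of Psmb3, 5 of Psma6, 4 of Psme3 and 3 each of Psma7, Psmc4 and Psme2, and none of Psma4, Psmb2, Psmc1 and Psmg2. Whether probes read such copies was not tested, nor whether the strains differ in sequence under the probes. A further probe set was present for Psma6, Psmb6, Psmc4, Psmd8, Psme1, Psme2 and Psme3. For these 7 genes both probe sets gave the same call in the 5 comparisons. The sign of differences that did not pass was not always shared. Leaving out values that round to 0.00, it differed on CAF for Psmd8 (−0.01 and 0.13) and on STD for Psma6 (−0.06 and 0.02) and Psmb6 (−0.07 and 0.02), for the diet in WKY rats for Psmb6 (0.01 and −0.05) and Psme3 (0.04 and −0.07) and in LEW rats for Psma6 (−0.04 and 0.03), and in the interaction for Psmd8 (−0.01 and 0.07), Psme1 (−0.03 and 0.04) and Psme3 (0.06 and −0.05). The shared probe set of Psma3l and Psma3, left out of the set, differed by 0.04 on CAF and 0.03 on STD and did not pass.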

How the data were processed

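Each rat's RNA was measured on 1 Rat Gene 1.0 ST array. The deposited values are log2 values of 28826 probe sets, which the authors normalised by RMA per their methods. The labels' processing notes name MAS5, without a version, and no genome build. Array medians lay between 6.83 and 6.90. Gene symbols came from the platform annotation, in which 15515 probe sets had a symbol and 306 had several, and probe sequences were not used here. With limma 3.58.1 (R 4.3.3) 1 mean per strain and diet group was fitted over the 20 arrays, with eBayes without trend (16 residual degrees of freedom). Tests were two-sided, and p-values were adjusted by Benjamini-Hochberg over all probe sets. The labels give separate rats, so the spread is between animals. The genes given in full were those that passed in a comparison or, where fewer than 3 did, the 3 of smallest P, those of highest and lowest mean, and of each structural class that of smallest P between the strains on CAF. Psmc6, Psmb9 and Ddi2 were added, the first after its values were seen and the others as called members of lists. The members and lists were chosen with earlier results of these data known. On simulated data the test recovered 87 of 100 changes of 1.5-fold between the strains on CAF. A change of that size is larger than every strain difference found for the proteasome genes of the set. Smaller changes were not simulated, so this rate does not tell how often differences of the sizes reported here would be missed. The alternatives were array weights, a filter on dim probe sets, a trend in eBayes, median centring, quantile normalisation, the mean of all probe sets of a gene, a fit of only the groups compared, the replicate number as a block, a monocyte marker covariate, an unadjusted threshold and leaving out each rat.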

Additional observations from a re-analysis of the deposited data

Results flagged for a closer look

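In 9 of the 176 gene and group sets (44 genes, 4 groups of 5 rats) a rat lay apart from the other 4 by Dixon's criterion, 5 on the high and 4 on the low side, and chance alone gives about 1 in 20 sets. CAF-fed WKY rat 1 was high for Psmd6, a lid subunit, at 9.99, and for the chaperone Psmg4, at 8.30, and CAF-fed WKY rat 3 was high for the chaperone Psmd5, at 8.41. STD-fed WKY rat 2 was high for Psmb3, at 11.06, and low for the ATPase Psmc6, at 9.79, and STD-fed WKY rat 1 was high for Psmd7, at 9.97. STD-fed LEW rat 4 was low for Psma6, at 9.37, and for Psmd5, at 8.03, and STD-fed LEW rat 2 was low for the ATPase Psmc3, at 9.47. Of these 9 sets, that of Psmb3 entered a difference that passed, and Psmb3 kept its call on STD in each fit without 1 rat.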

How the results depend on the processing

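The count of proteasome genes that passed was 3 to 6 on CAF and 4 to 6 on STD between the strains when single rats were left out, and 0 in the diet and interaction comparisons. With the monocyte marker mean as a covariate it was 0 on CAF and 2 on STD, and Psmd2 turned to −0.025 on CAF (adjusted p = 0.965). At an unadjusted P under 0.01 it was 7 on CAF, 1 for the diet in WKY rats and 1 for the interaction (Psma7 in both). Psmc3ip, which had not passed, ranged between −0.071 and 0.014 on CAF without single rats and turned without CAF-fed LEW rat 5. Psmg2 on STD lost its call when only the 2 groups compared were fitted (adjusted p = 0.0791), and Psmb2 with median centring (0.0781). On CAF Psmd14 gained a call with quantile normalisation (0.0252) or without LEW rat 1 (0.0254), and Psmb3 with array weights (0.0349) or without LEW rat 5 (0.0281). Without the 4 arrays high in Hsph1 Psmb2 on STD differed by 0.18 (adjusted p = 0.131), against 0.20 with all rats. The replicate number as a block gave 4, 6, 0, 0 and 0 genes. Correlations between same-numbered rats ran from −0.18 to 0.43, with 6 of 20 over 0.1. The highest were those between CAF-fed and STD-fed LEW rats of number 5 (0.43, against at most 0.03 with other numbers) and number 2 (0.41, against at most 0.30). Both LEW rats of number 2 are among the arrays high in Hsph1. Rats of different numbers reached similar values between the diets. CAF-fed LEW rat 4 had up to 0.43 with another number and −0.02 with its own, and CAF-fed WKY rat 1 had 0.35 and −0.18. Whether the numbers pair the rats was not tested. In all, 493 of 526 alternative values of single genes kept direction and call, as did 109 of 114 counts within 1.5 times. Most of these values were of genes that did not pass with all rats, and most counts were 0, so that they had no call to lose. The 27 values that lost a call were of genes that had passed, most of them of Psme2 on CAF and of Psmb2 and Psmg2 on STD. Psmd10 did not pass the dim filter and has no value there. The number of rats limits the precision.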
